A study of Mus musculus with 28 samples.

Results

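The genes described here are splicing factors and ribonucleoproteins that bind RNA, measured in single Müller glial cells (MGCs), the main glia of the retina. They were chosen by symbol: every gene of the array annotation named Hnrnp, Hnrp, Srsf, Sfrs, Sf3a or Sf3b with its letter or number, and the pair Rsrc1 and Rsrc2. This gave 40 of the 18194 genes with a probe set of their own: 19 hnRNP genes, 10 SR protein genes, 9 SF3 subunit genes and 2 Rsrc genes. They are called splicing genes below. Hnrnpa3 was left out because its probe sets are shared with another gene, and other genes of these families without a probe set of their own were not analysed here.

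Introns are removed from a new transcript by the spliceosome, which recognizes the splice sites and the branch point. SF3a and SF3b are parts of the U2 particle and hold it at the branch point. SR proteins bind exons and usually favour the use of a nearby splice site, whereas hnRNP proteins coat nuclear RNA, often oppose SR proteins, and also act in RNA export and stability. Retinal tissue is known to be sensitive to splicing, since inherited defects of general spliceosome proteins such as Prpf8 cause retinitis pigmentosa in humans.

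The study asked how gene expression in MGCs changes while photoreceptors die, and compared cells picked by shape from dissociated retinas of 2 mouse models of retinitis pigmentosa with control cells. Each array held the amplified cDNA of 1 cell. Adult wild-type (WT) mice were C57/BL6, over 25 weeks old by the label, and gave 5 cells. The text of the study gives a much younger minimum age for them, so their age is uncertain. It also states that these 5 cells had been published before. Each comparison with adult WT thus sets earlier arrays against those of the later study, and the part of this was not tested. Mice without rhodopsin (Rhod-ko), of the same strain by the labels, gave 5 cells at 8 weeks and 5 at 25 weeks. The rd1 mice, of the FVB strain, gave 5 cells at postnatal day 13 (P13) and 5 at 5 weeks, and the congenic FVB control gave 3 cells at P13. Thus the rd1 cells at 5 weeks differ from adult WT in strain as well as in genotype, and by the labels both they and the Rhod-ko cells at 8 weeks differ from it in age. Retinas came from several litters, but no label names the animal of any cell, so cells of a condition may share one. The rd1 arrays A5 and A6, both of 5 weeks, correlated at r = 0.989 over all probe sets, against at most 0.764 for the 377 other pairs, and all 26 splicing genes with a mean signal of at least 500 on them lay within 1.54-fold of each other. They were counted as 1 cell, which left 27 cells and 4 at this stage.

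The values are MAS 5.0 signals on a linear scale, and each gene takes, cell by cell, its highest probe set. On means a signal of at least 2000. Conditions are compared by the medians of their cells on the log2 scale, with signals under 1000 set to 1000, and a gene is called higher or lower at a difference of 1, which is 2-fold. Where a median lies under 1000 such a difference is a lower bound. With 1 group of cells per condition there is no test, and the calls follow a rule of size alone. For shares of cells, exact binomial 95% intervals cover counting error only: 5 of 5 cells allow a share of 47.8% to 100%, 0 of 5 allow 0% to 52.2%, and 3 of 3 allow 29.2% to 100%.

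Several cells went against their label by markers. All 3 congenic FVB cells had 4 to 7 of 21 MGC markers on and 12 or 13 of 16 vascular markers, with Aqp4 and Slc1a3 off and Pecam1, Cdh5 and Cldn5 on in all 3. The rd1 P13 cells A1 and B1 were alike, with 8 and 6 MGC markers and 13 and 10 vascular markers on. The other cells had 13 to 20 MGC markers and 2 to 6 vascular markers on, and Pecam1 and Cdh5 were off in every adult cell. The summed signal of the vascular markers was 188226 to 258166 in congenic FVB, 20471 to 219910.0 in rd1 at P13 and 28482 to 98302 in the adult conditions. The Rhod-ko 8 weeks cell 7 had 6 of 17 microglia markers on, against 0 or 1 in the other cells, and its Csf1r signal was 118151, while Cx3cr1, Aif1 and Itgam were off. Summed microglia marker signals were 3826 to 288164 at that stage and 1526 to 12669 in adult WT. Rod markers were on at 9 and 8 of 14 in the Rhod-ko 8 weeks cells 7 and 8 and at 6 to 11 in P13 cells, against 0 to 4 elsewhere. Summed rod marker signals were 40057 to 294980 in Rhod-ko at 8 weeks and 12894 to 58106 in adult WT. The rd1 cell A1 of 5 weeks had neuron markers on, with 6 for cones, 8 for amacrine cells and 6 for ganglion cells, each of 10. By the same measure Rhod-ko cell A2 of 25 weeks had 6 of 10 amacrine markers on and rd1 cell A4 of P13 had 6 of 10 ganglion cell markers on. The part of these markers in the results was not tested, and the counts of genes called are also given without such mutant cells.

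The promoter sequences of 4 genes are shown, picked by their signals in the Rhod-ko cells of 8 weeks: Hnrnpk, Hnrnpa2b1 and Hnrnpa0 were low there and Sf3a2 was high. Of these only Hnrnpk and Hnrnpa2b1 stood apart from all other cells. Sf3a2 overlapped adult WT and the Rhod-ko cells of 25 weeks, and Hnrnpa0 overlapped a congenic FVB cell. Each sequence is the 120 bases before the start of the gene by RefSeq on GRCm38.p6, written 5′ to 3′ on the strand of the gene. Hnrnpk lies on the minus strand at chr13:58402118-58402237, Hnrnpa2b1 on the minus strand at chr6:51469895-51470014, Hnrnpa0 on the minus strand at chr13:58128557-58128676 and Sf3a2 on the plus strand at chr10:80798615-80798734. Capitals mark the CCAAT box (CCAAT or, on the other strand, ATTGG), the GC box (GGGCGG) and the ETS site (CCGGAAG), all searched on both strands.
Hnrnpk: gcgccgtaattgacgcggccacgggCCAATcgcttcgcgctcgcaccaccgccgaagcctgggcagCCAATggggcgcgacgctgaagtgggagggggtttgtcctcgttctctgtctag
Hnrnpa2b1: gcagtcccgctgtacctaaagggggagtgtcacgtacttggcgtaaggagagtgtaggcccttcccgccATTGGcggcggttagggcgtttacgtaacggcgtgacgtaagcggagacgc
Hnrnpa0: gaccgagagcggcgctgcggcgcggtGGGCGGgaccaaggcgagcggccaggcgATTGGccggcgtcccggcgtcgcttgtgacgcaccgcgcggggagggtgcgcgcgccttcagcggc
Sf3a2: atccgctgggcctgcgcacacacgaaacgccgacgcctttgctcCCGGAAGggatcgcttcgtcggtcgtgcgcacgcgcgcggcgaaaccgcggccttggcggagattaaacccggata

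All 4 windows are rich in CpG, the dinucleotide that marks promoters of widely used genes: they hold 13 to 23 CpG, and 60.8% to 79.2% of their bases are G or C, against medians of 3 and 54.2% over the 32851 promoters of the table. The 3 windows of the low genes hold a CCAAT box. In Hnrnpk such boxes begin 95 and 54 bases before the start, and an inverted box begins 51 bases before it in Hnrnpa2b1 and 66 bases before it in Hnrnpa0. The table gives Hnrnpa2b1 a further start, which was not used. A CCAAT box lies in 21.3% of all promoter windows of this length, a GC box in 26.5% and the ETS site in 4.99%. No window of the 4 holds the TATA box TATAAA or the CRE palindrome TGACGTCA, which lie in 6.34% and 1.24% of all windows. The genes were picked by their signals and the matches are a description only.

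Most splicing genes were on in many cells, more often than genes at large. In all, 23 of the 40 (57.5%) were on in at least 14 of the 27 cells, against 8.32% of all genes. Each gene takes its highest probe set, and the 40 genes have 126 probe sets where the 18194 genes have 34958. The part of this in the shares was not tested. No splicing gene was on in every cell and none was off in every cell. Hnrnpu, which binds RNA and chromatin in the nucleus, and Srsf3, a small SR protein, were on in 26 cells. Hnrnpa1, Hnrnpll, Srsf12 and Srsf9 were on in at most 5 cells. Hnrnpa1, a core hnRNP protein, was on in 3 cells. The map of all 40 genes shows that a gene on in most cells was often off in a few cells of the same condition.

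**Figure D1:**
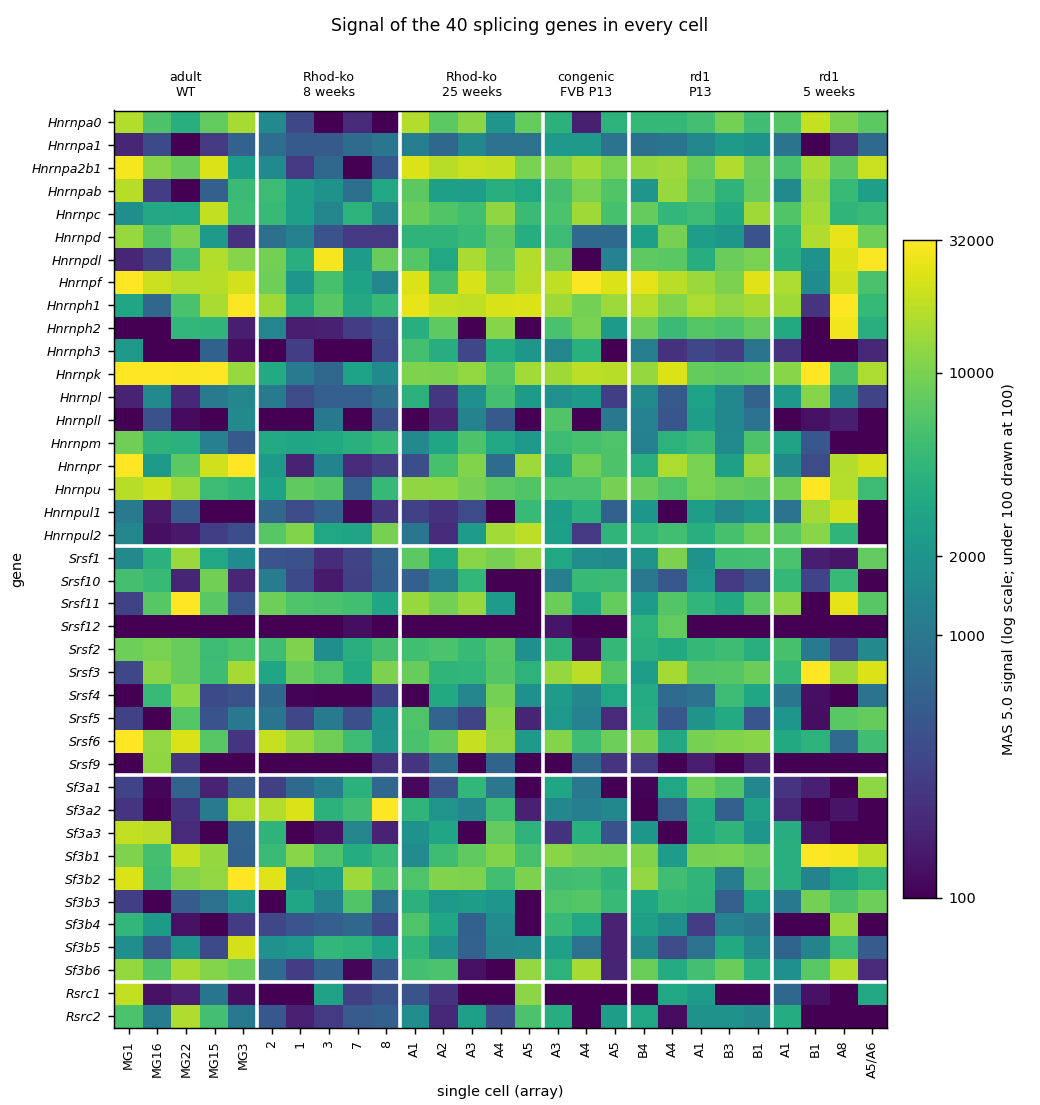
Signal of each of the 40 splicing genes (rows, by family from hnRNP at the top to Rsrc at the bottom) in each of the 27 cells (columns, by condition), on a log colour scale in MAS 5.0 units. The Rhod-ko cells of 8 weeks are dark for Hnrnpa0 and Hnrnpa2b1 and bright for Sf3a2, and Srsf12 is dark in all but 2 cells.

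The median number of splicing genes on per cell was lowest in Rhod-ko at 8 weeks, but with on at 500 in place of 2000 it was 26 both there and in adult WT. In adult WT 21, 22, 23, 21 and 17 of the 40 were on. In Rhod-ko at 8 weeks 18, 17, 14, 17 and 14 were on, and at 25 weeks 25, 27, 24, 27 and 25. The cells of the 2 Rhod-ko ages did not overlap, and those of 8 weeks overlapped adult WT at its lowest cell. The congenic FVB cells had 32, 24 and 22 on, the rd1 cells at P13 28, 26, 30, 26 and 26, and the rd1 cells at 5 weeks 24, 15, 24 and 22. By number the hnRNP genes, the largest family, differed most, with a median of 7 of 19 on in Rhod-ko at 8 weeks, 11 in adult WT and 14 in Rhod-ko at 25 weeks. SR genes had medians of 4, 6 and 6 of 10, and SF3 genes 4, 5 and 5 of 9. Between 8 weeks and adult WT the hnRNP and SR genes thus differed by a like share of their family.

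The count followed how many genes a cell had on at all. All genes on per cell numbered 1847 to 2603 in adult WT, 1970.0 to 2363 in Rhod-ko at 8 weeks, 2670.0 to 3123 in Rhod-ko at 25 weeks and 2841 to 3072 at P13 in rd1. Over the 27 cells Pearson's r of both counts was 0.79 and Spearman's rho 0.73, a description in which points share conditions and arrays. Adult WT and Rhod-ko at 8 weeks overlapped in genes on, so the lower count of splicing genes at 8 weeks stands beside a like total. The signal was spread otherwise, since the 100 strongest probe sets held 22.2% to 35.7% of it at 8 weeks and 13.4% to 24.6% in adult WT. The part of this in the count was not tested. The control probe sets for Gapdh differed between these conditions: the signal of the 3′ set over the 5′ set was 0.554 to 4.06 for adult WT and 3.95 to 18.2 for the Rhod-ko cells of 8 weeks, and 1.17 to 3.00 for all others. The ratio falls when cDNA reaches further upstream of the poly(A) tail, and its part in the results was not tested.

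**Figure D2:**
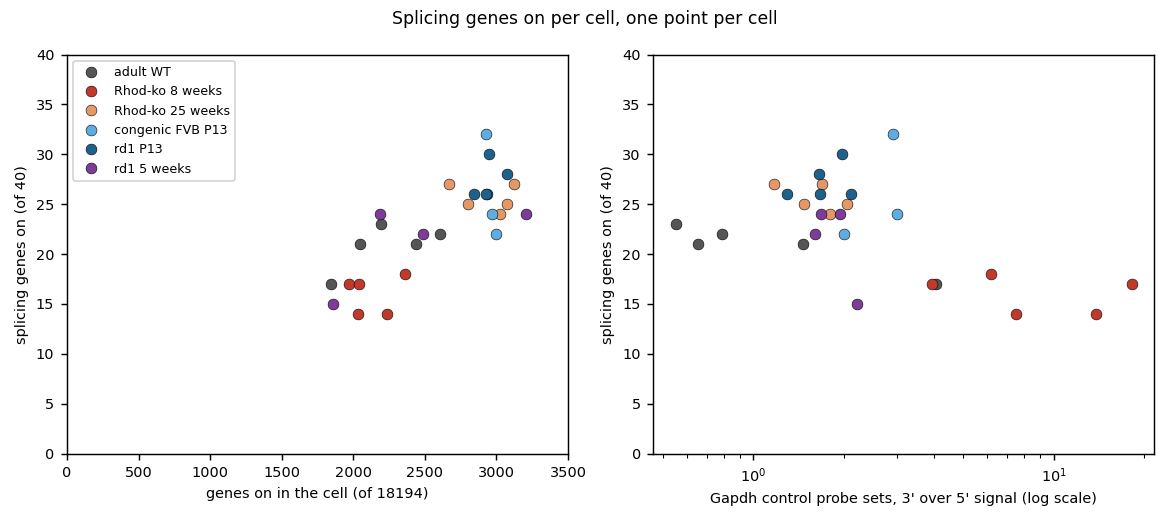
Splicing genes on per cell (vertical, of 40) against all genes on in the cell (left, count) and against the Gapdh 3′ over 5′ signal ratio (right, log axis), with 1 point per cell coloured by condition. Cells at 8 weeks of Rhod-ko lie at 14 to 18 splicing genes on and at Gapdh ratios of 3.95 to 18.2.

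At 8 weeks Rhod-ko cells had 12 splicing genes lower and 3 higher than adult WT. The lower genes were Hnrnpa0, Hnrnpa2b1, Hnrnpd, Hnrnpf, Hnrnpk, Hnrnpr, Hnrnpu, Srsf1, Srsf10, Sf3b1, Sf3b6 and Rsrc2, and the higher ones Hnrnpab, Hnrnpul2 and Sf3a2. That is 30.0% lower and 7.5% higher, against 5.12% and 6.17% of all 18194 genes. Few genes are on in these cells, so a second background was taken over the 1513 genes whose median over all cells was at least 2000, called expressed genes here, 23 of which are splicing genes. There 10 of 23 (43.5%) were lower and 2 of 23 (8.7%) higher, against 28.5% and 41.6% of the 1513. The median difference of the 23 was -0.60 and that of the 1513 was 0.45 (log2). Scaling to the same 90th percentile moved the median difference of the expressed genes by -0.42 and gave 16 lower and 3 higher. Of the 23 expressed splicing genes 60.9% were then lower and 8.7% higher, against 35.2% and 38.9% of the 1513. Under quantile normalization 10 were lower and 4 higher. Of the 23 that made 34.8% lower and 13.0% higher, against 25.7% and 42.1% of the 1513. With 1 probe set per gene, the one with the highest mean, the counts were 7 lower and 7 higher. Of the 23 expressed splicing genes 6 (26.1%) were then lower, against 24.5% of the 1513, so the share lower then lay near the background. Without cells 7 and 8, which carry the rod and microglia markers, 12 were lower and 3 higher.

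The cells of both groups did not overlap for 8 of these genes. Hnrnpa0, Hnrnpa2b1, Hnrnpf, Hnrnpk, Rsrc2, Sf3b6 and Srsf1 were lower in every Rhod-ko cell of 8 weeks than in any adult WT cell, which is 7 of 40 where 0.561% of all genes and 4.63% of the 1513 genes did so. Hnrnpul2 was higher in every cell, as were 0.907% of all genes and 6.87% of the 1513.

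Hnrnpk, a KH domain protein that binds C-rich RNA, had signals of 34304, 49343, 30798, 36172 and 12997 in adult WT and of 3424, 1092, 687, 2841 and 1569 in Rhod-ko at 8 weeks. Every cell of 8 weeks lay under every adult WT cell, and 2 of the 5 were still on. The log2 difference was -4.45, 21.9-fold lower, but it sets different probe sets against each other. The highest was 1454692_x_at in 3 of 5 adult WT cells and 1460547_a_at in all 5 cells of 8 weeks. Single probe sets gave smaller or larger differences, down to none, as described below. In Rhod-ko at 25 weeks the signals were 10395, 10233, 12479, 6988 and 14388. Their median lay between those of the other groups, and the highest cell overlapped adult WT.

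Hnrnpa2b1 encodes a core protein of the nuclear hnRNP particle that also takes part in RNA transport. Its signals were 29266, 11594, 8509, 22881 and 2462 in adult WT and 1589.8, 261, 702, 37.1 and 493 in Rhod-ko at 8 weeks, where no cell had it on. At 25 weeks they were 23380.4, 17407, 19995, 19019 and 10043, all above the cells of 8 weeks. The difference of 8 weeks from adult WT was -3.54 on the log2 scale, at least 11.6-fold lower.

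The cells of 8 weeks stood under all 22 other cells, of every genotype and age, for Hnrnpk and Hnrnpa2b1. The highest of the 5 cells reached 3424 for Hnrnpk, where the lowest other cell was at 5822, and 1589.8 for Hnrnpa2b1, where the lowest other cell was at 2462. Of all genes 12 (0.066%) had this order, and 11 of them were among the 1513 (0.727%). The comparison was chosen after the values were seen. In the reverse order, with every cell of 8 weeks above all others, there were 121 genes and no splicing gene.

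Hnrnpa0, an intronless relative of Hnrnpa1, had signals of 16428, 6411, 3689, 8024 and 15112 in adult WT and of 1597, 351, 41.5, 205 and 77.7 in Rhod-ko at 8 weeks. At 25 weeks it was on in all 5 cells, at 2027 to 16426. It was on in all cells of rd1 at either age, and the only other cell with it off was congenic FVB cell A4, at 168.

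Hnrnpf binds runs of G and regulates alternative exons. Its signals were 31501, 20302, 16959.9, 17319 and 21380.0 in adult WT and 8988, 2061, 5905, 2816 and 1453 in Rhod-ko at 8 weeks. The gene was still on in 4 of the 5 cells, and the groups did not overlap, with a log2 difference of -2.85 or 7.21-fold lower.

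Sf3b6 encodes the SF3b subunit that contacts the branch point adenosine. In adult WT its signals were 12929, 6849, 14946, 10854 and 9036, and in Rhod-ko at 8 weeks 753, 286, 598, 107 and 506. All 5 adult WT cells and no cell of 8 weeks had it on. At 25 weeks it split, with 5707, 6235 and 12610.2 in 3 cells and 129.8 and 96.8 in the others, so that the ages overlapped.

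Srsf1, the SR protein also called ASF/SF2, was at 1526, 4008, 13441, 3074 and 1661 in adult WT and at 461, 414, 213, 329.7 and 628 in Rhod-ko at 8 weeks. The log2 difference was -1.62, but with 1 probe set per gene it was 0.00. At 25 weeks all 5 cells had it on, at 7535, 2985, 11535, 9758 and 12634.

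Hnrnpr, a close relative of Syncrip that binds mRNA in nucleus and cytoplasm, was at 33779.9, 2317, 7403, 21226 and 32715 in adult WT. The Rhod-ko cells of 8 weeks were at 2334, 174, 1357, 199.8 and 287, an overlap by a single cell, with a log2 difference of -4.41. Rsrc2 fell from 6289.7, 1144, 16066, 5757 and 1033 in adult WT to 495, 171, 265, 524 and 592. Rsrc1, a protein with RS repeats that takes part in constitutive and alternative splicing, was on in 6 cells over all conditions, at most 2 in each, and was at 19036 in adult WT cell MG1 and 2748 in Rhod-ko 8 weeks cell 3.

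Of the 3 genes that were higher at 8 weeks, 2 are hnRNP genes and 1 is an SF3 gene. Hnrnpul2, a relative of Hnrnpu, was off in adult WT at 1421, 128, 149, 294 and 404 and on in all Rhod-ko cells of 8 weeks at 7073, 10641, 3109, 2911 and 9762. The groups did not overlap, and the difference was at least 2.82. The probe set most often highest differed, 1434551_at in 4 of 5 adult WT cells and 1415765_at in 3 of 5 cells of 8 weeks. Sf3a2, an SF3a subunit, was at 238, 56.0, 232, 1113 and 15666 in adult WT and at 16486, 22951, 4109.9, 5425 and 54221 at 8 weeks. Adult WT cell MG3 lay inside the range of the 8 weeks cells. This signal came from 1 of the 2 Sf3a2 probe sets, of the kind that can match several transcripts, and without such probe sets the difference was 0.00. Hnrnpab was at 17136, 282, 54.0, 588 and 5079.9 in adult WT and at 5177, 2628, 1939.8, 841 and 3153 at 8 weeks. The groups overlapped fully, and the difference was 1.39 by medians and -0.01 by means. It was 0.22 without adult WT cell MG16, MG22 or MG15, which ends its call.

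**Figure D3:**
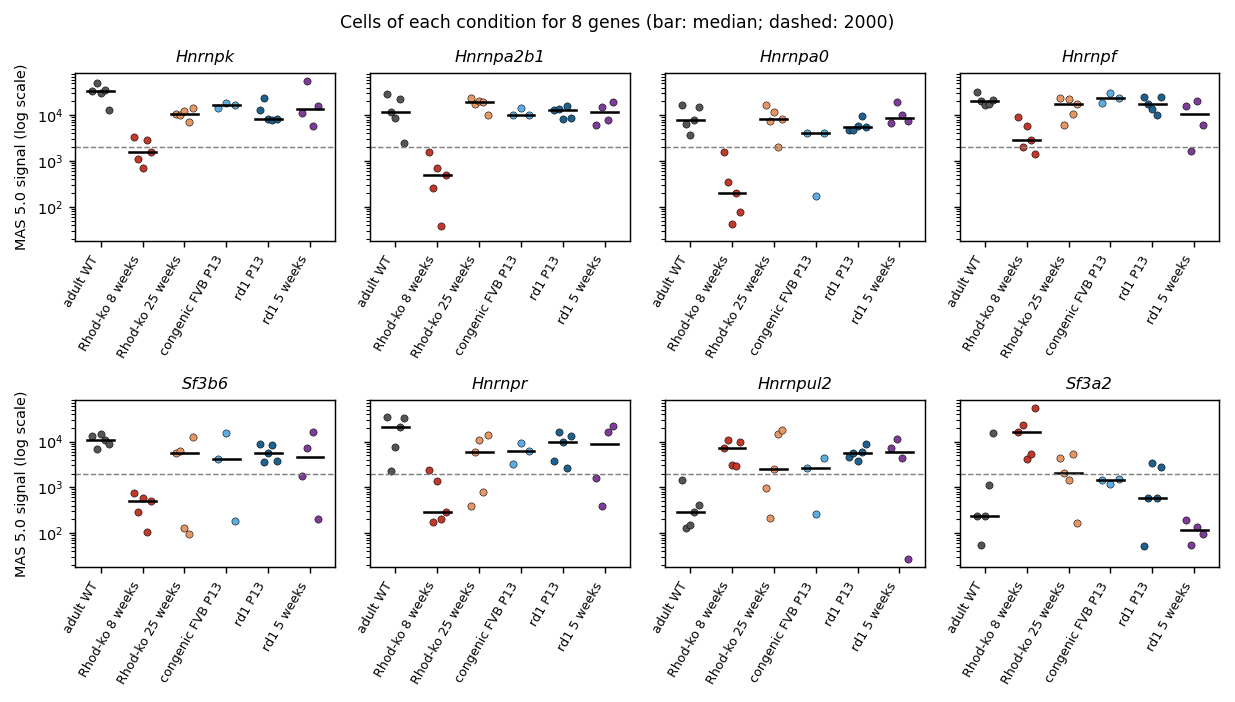
Signal of 8 splicing genes in every cell by condition (log axis, MAS 5.0 units, 1 point per cell, bars at the median, dashed line at 2000). In the first 5 panels the Rhod-ko cells of 8 weeks lie lowest or nearly so, and in the Hnrnpul2 and Sf3a2 panels they lie above most or all adult WT cells.

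The Rhod-ko cells of both ages share strain and genotype by the labels, and they were set against each other after the values were seen. Their arrays did not overlap in the Gapdh ratio, at 3.95 to 18.2 for 8 weeks and 1.17 to 2.05 for 25 weeks. All genes on per cell were 1970 to 2363 and 2670 to 3123. The 100 strongest probe sets held 22.2% to 35.7% of the signal at 8 weeks and 9.4% to 10.5% at 25 weeks. The part of these measures in the results was not tested. At 8 weeks 15 splicing genes (37.5%) were lower and 2 (5.0%) higher than at 25 weeks, against 7.33% and 4.16% of all genes. Of the 23 expressed splicing genes, 12 (52.2%) were lower and 1 (4.35%) higher, against 35.9% and 23.6% of the 1513. The hnRNP genes, 19 of the 40, made up 12 of the 15 lower genes. No cells overlapped for 7 lower genes, Hnrnpa0, Hnrnpa2b1, Hnrnpc, Hnrnpd, Hnrnph1, Hnrnpk and Srsf1, where 1.19% of all genes and 9.12% of the 1513 were so. No splicing gene was higher with cells apart, against 0.896% and 6.41%. The largest difference was that of Hnrnpa2b1 at -4.25, and Srsf1 followed at -3.29. Scaling to the same 90th percentile moved the median difference of the expressed genes by 0.70 and gave 13 lower and 6 higher. Of the 23 expressed splicing genes 43.5% were then lower and 17.4% higher, against 22.2% and 36.5% of the 1513. With 1 probe set per gene 15 were lower and 3 higher. Of the 23 that made 52.2% lower and 8.7% higher, against 36.2% and 23.5% of the 1513. Without cells 7 and 8 of 8 weeks 15 were lower and 2 higher, and without cell A2 of 25 weeks as well 16 and 1.

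At 25 weeks Rhod-ko cells had 11 splicing genes higher and 4 lower than adult WT, but scaling to the same 90th percentile gave 4 higher and 16 lower. That scaling moved the median difference of the expressed genes by -0.99, to -0.47. The 27.5% higher and 10.0% lower stand beside 7.90% and 3.70% of all genes. Among the 23 expressed splicing genes, 7 (30.4%) were higher and 2 (8.7%) lower, and of the 1513 genes 42.4% and 15.9%. After the scaling 7.55% of all genes and 40.8% of the 1513 were lower, and 13 of the 23 expressed splicing genes. Without cell A2, which carries amacrine markers, 11 were higher and 5 lower. Without adult WT cell MG1 the count of higher genes was 7, and without Rhod-ko cell A4 it was 6. No gene was called with its cells apart. Before the scaling both shares of the expressed splicing genes, higher and lower, lay under those of the 1513. After it the share lower lay above, at 56.5% against 40.8%, and the share higher under, at 8.7% against 29.1%. The direction of the whole set depended on the scaling.

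The 3 largest higher genes at 25 weeks were the G-run binding proteins Hnrnph2, Hnrnph1 and Hnrnph3. Hnrnph1 was at 2966, 666, 6155, 15250.0 and 30835 in adult WT and at 25812, 19402, 18370.1, 22577 and 23200.3 at 25 weeks. The 5 cells of 25 weeks lay close together while adult WT spread from 666 to 30835, and its cell MG3 was the highest of both groups. The log2 difference of 1.87 became -0.27 under scaling to the same 90th percentile. Hnrnph3 was at 2229.6, 12.6, 5.00, 599 and 121 in adult WT and at 5894, 3607, 339, 3367 and 2138 at 25 weeks, on in 4 of 5 cells against 1 of 5, with a difference of at least 1.75. It was on in 6 cells of the 27, the sixth being congenic FVB cell A4. Hnrnph2 was on in 3 cells of 25 weeks, at 3781, 7701 and 11162, and at 23.6 and 23.5 in the others, where adult WT had 2 cells on. Its difference of 1.92 was 0.81 by means, 0.86 without adult WT cell MG1, MG16 or MG3, and 0.96 without Rhod-ko cell A2 or A4, all under the 2-fold rule.

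The lower genes at 25 weeks were Srsf10, Hnrnpr, Rsrc2 and Hnrnpk. Srsf10, an SR-like protein known as a repressor of splicing after heat shock, was at 5858, 4954, 181, 9379 and 188 in adult WT and at 590.4, 1199.5, 4535, 38.4 and 28.1 at 25 weeks. It was on in 3 adult WT cells and 1 cell of 25 weeks, and with 1 probe set per gene the difference was 0.00. Hnrnpr was at 400.0, 5941, 10693, 776 and 13735, and Rsrc2 at 1687, 189, 2608, 391 and 6281, both overlapping adult WT. Leaving out single cells moved the difference of Hnrnpr from -3.12 to -1.08. That of Rsrc2 was -0.61 without adult WT cell MG1 or MG22 and -0.67 without MG15, which ends its call.

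In rd1 at 5 weeks 8 splicing genes (20%) were higher and 10 (25.0%) lower than adult WT, against 6.35% and 4.25% of all genes. Of the 23 expressed splicing genes, 6 (26.1%) were higher and 8 (34.8%) lower, and of the 1513 genes 36.3% and 21.2%. Scaling to the same 90th percentile, which moved the median difference of the expressed genes by -0.28, gave 7 higher and 14 lower. Of the 23 expressed splicing genes 21.7% were then higher and 47.8% lower, against 32.8% and 30.8% of the 1513. With 1 probe set per gene 12 were higher and 6 lower. Of the 23 that made 43.5% higher and 21.7% lower, against 39.7% and 18.0% of the 1513. With the congenic FVB cells as the control, the counts were 6 higher and 9 lower, and without cell A1, which carries the neuron markers, 10 and 9.

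Sf3b2, an SF3b subunit, was lower in every rd1 cell of 5 weeks than in any adult WT cell, the only splicing gene so placed, where 0.346% of all genes and 0.529% of the 1513 were lower with cells apart. Its signals were 22991, 5444, 10953, 12558 and 33240.2 in adult WT and 3748, 1353, 2755 and 4152 in rd1, a log2 difference of -1.97. Rhod-ko cells reached up to 23924 at 8 weeks and 10627 at 25 weeks. The congenic FVB cells were at 5452, 5733 and 4226, above the rd1 cells of 5 weeks and overlapping adult WT. Srsf2, the SR protein SC35, was at 9031, 10061, 8302, 5231 and 6229 in adult WT and at 6022, 1100.1, 379.5 and 1499.6 in rd1 at 5 weeks. Cell A1 alone was on and lay inside the adult WT range, and the difference of -2.69 was 0.00 without probe sets that can match several transcripts. Hnrnpr was at 1598, 384, 16460.5 and 21575, with a difference of -2.05. It was -0.37 without cell A1 or without cell B1, and -3.73 without either of the other cells.

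The largest higher gene at 5 weeks was Sf3b3, another SF3b subunit. It was at 291, 35.9, 533, 884 and 2076 in adult WT and at 1033, 9627, 6431 and 8941 in rd1, an overlap by cell A1 alone, with a difference of 2.92. The congenic FVB cells, of the control for rd1 but at P13 and with vascular markers on, lay inside the rd1 range. They were at 6543, 6976 and 4984. Hnrnpul2 was on in 3 of the 4 rd1 cells of 5 weeks, at 7278, 11433 and 4378, and at 26.6 in the cell of arrays A5 and A6. Srsf5 was at 307, 94.8, 6917, 446 and 1012 in adult WT and at 2069, 125, 7338 and 8204 in rd1. Rsrc2 was on in cell A1, at 3595, and at 59.1, 87.1 and 52.2 in the others.

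At P13 rd1 cells had 6 splicing genes higher and 4 lower than congenic FVB cells. This comparison rests on control cells with vascular markers on. The 15.0% and 10.0% stand beside 4.79% and 6.41% of all genes. Of the 23 expressed splicing genes, 4 (17.4%) were higher and 2 (8.7%) lower, and of the 1513 genes 23.7% and 12.1%. Without rd1 cells A1 and B1, which carry vascular markers too, 9 were higher and 5 lower, and without cell A4 as well 9 and 6. Without congenic FVB cell A3 or A4 or rd1 cell B3, 2 were lower. Sf3b3 was the only gene called with cells apart, at 6543, 6976 and 4984 in congenic FVB and at 2972, 4712, 4223, 577 and 2754 in rd1, a difference of -1.14, where 0.901% of all genes and 1.45% of the 1513 were lower with cells apart. Its difference was -0.99 to -0.89 without congenic FVB cell A3 or A4 or rd1 cell B4, B3 or B1, which ends the call. Hnrnpk was at 14076, 18039 and 17119 in congenic FVB and at 12993, 23401, 8135, 7711 and 8217 in rd1.

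With the 19 mutant cells pooled against adult WT, 6 splicing genes were higher and 6 lower (15.0% each), against 5.02% and 4.45% of all genes. Of the 23 expressed splicing genes, 5 (21.7%) were higher and 4 (17.4%) lower, and of the 1513 genes 45.7% and 19.6%. Scaling to the same 90th percentile moved the median difference of the expressed genes by -1.01 and gave 3 higher and 19 lower. Of the 23 expressed splicing genes 13.0% were then higher and 69.6% lower, against 34.4% and 40.5% of the 1513. With 1 probe set per gene 13 were higher and 3 lower. Of the 23 that made 52.2% higher and 8.7% lower, against 49.6% and 17.6% of the 1513. Thus neither direction of the counts held for the set. Without all mutant cells named for markers, 5 were higher and 7 lower. Higher were Hnrnpab, Hnrnph1, Hnrnph2, Hnrnpul2, Sf3a2 and Sf3b3, and lower were Hnrnpk, Hnrnpr, Rsrc2, Sf3b2, Sf3b6 and Srsf10. The calls of Hnrnph2 and Hnrnpab ended when some single adult WT cells were left out, at 0.84 for Hnrnph2 without MG1, MG16 or MG3 and 0.49 for Hnrnpab without MG16, MG22 or MG15. For no splicing gene did the pooled mutant cells stand apart from adult WT. The 3 adult comparisons share the same 5 adult WT cells. In the order Rhod-ko at 8 and 25 weeks, then rd1 at 5 weeks, Hnrnpr had differences of -4.41, -1.84 and -2.05, Rsrc2 of -2.53, -1.77 and -2.53, and Hnrnpul2 of 2.82, 1.29 and 2.50.

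**Figure D4:**
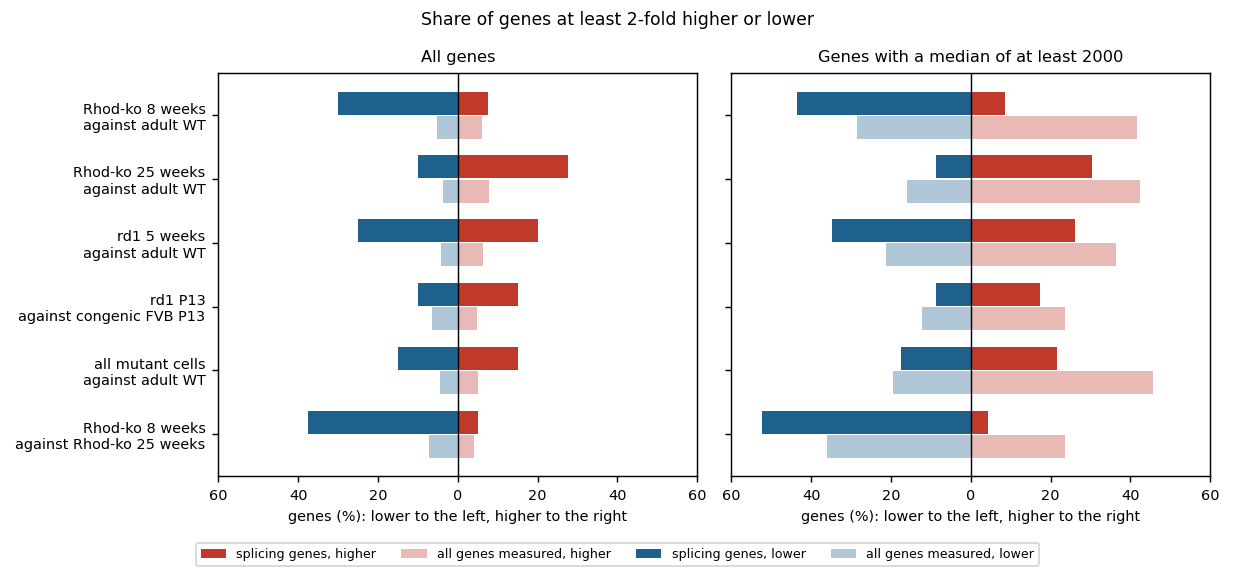
Percent of splicing genes (dark bars) and of all genes measured (pale bars) at least 2-fold higher (right) or lower (left) in each comparison, over all genes (left panel, 40 of 18194) and over genes with a median signal of at least 2000 (right panel, 23 of 1513). Every dark bar exceeds its pale bar in the left panel, but in the right panel only the lower bars of Rhod-ko at 8 weeks, against adult WT or 25 weeks, and of rd1 at 5 weeks do.

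Several splicing genes gave different answers by probe set. Of the 40, 31 have 2 or more probe sets. In 7 of these, Hnrnpdl, Hnrnph1, Hnrnpk, Hnrnpr, Sf3b3, Sf3b6 and Srsf3, the probe set most often highest was the same in the 5 other conditions and another in adult WT. Probe sets of a gene were called in opposite directions for Hnrnpc, Srsf2, Srsf3 and Srsf6 in Rhod-ko at 8 weeks against adult WT, for Hnrnpd, Hnrnpk and Srsf3 at 25 weeks, for Hnrnpc and Hnrnpk in rd1 at 5 weeks, and for Hnrnpab at P13. This was 4, 3, 2 and 1 of the 31, where 0.677%, 0.666%, 0.71% and 0.244% of the 9012 genes with several probe sets did so. Only genes with 2 or more called probe sets can disagree. Of those, 4 of 10, 3 of 10, 2 of 8 and 1 of 4 splicing genes and 15.3%, 15.3%, 18.5% and 6.3% of all genes had opposite calls.

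Hnrnpk shows the pattern. Its probe set 1454692_x_at had signals of 34304, 49343 and 30798 in adult WT cells MG1, MG16 and MG22, of 3604 and 3907 in MG15 and MG3, and medians of 537 to 811 in every other condition. Its probe set 1448176_a_at was at 18.0, 21.2 and 14.3 in the first 3 cells and at 12382 and 6274 in MG15 and MG3. Its median was 21.2 in adult WT and 377 in Rhod-ko at 8 weeks, but 8950 at 25 weeks, 9589 in congenic FVB, 6070 in rd1 at P13 and 9186 in rd1 at 5 weeks. Thus the log2 difference of 25 weeks from adult WT was -4.94 by the former and 3.16 by the latter. For 8 weeks the 4 probe sets gave -4.94, -3.35, -0.96 and 0.00, and none was higher than in adult WT. The 4 probe sets of Hnrnpa2b1 gave -3.41, -2.26, -1.61 and 0.00 for 8 weeks against adult WT, and -4.25, -3.87, -3.40 and -3.33 against 25 weeks. Thus the low signal at 8 weeks was seen by every probe set of Hnrnpa2b1 against 25 weeks.

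Srsf3 was higher by 2.69 at 8 weeks in probe set 1416150_a_at and lower by a difference of -2.42 in probe set 1416152_a_at. Its highest signal per cell, at 348, 11552, 8285, 5355 and 14730.5 in adult WT and 2939.7, 8424, 6473, 3396 and 10170.1 at 8 weeks, differed by -0.36. Hnrnph1 rose by 4.50 at 25 weeks in probe set 1415872_at, and by 1.73 in probe set 1437267_x_at. The former was at 21.9, 61.2 and 197.5 in cells MG1, MG16 and MG22 and at 15250.0 and 30835 in MG15 and MG3, the same split of adult WT cells as for Hnrnpk. The Gapdh ratio was 0.554 to 0.787 in the first 3 and 1.47 and 4.06 in the others, and its part was not tested. Hnrnpc, which binds runs of U, differed at 8 weeks by -1.68 and 1.37 in its 2 called probe sets. Hnrnpd, also called AUF1 and known to bind AU-rich RNA, differed at 25 weeks by 2.09 and -1.22, Srsf6 at 8 weeks by 2.00 and 1.72 against -1.28, and Srsf2 at 8 weeks by 1.12 against -1.73. Hnrnpab differed at P13 by 1.03 against -1.23 and -1.61. Whether probe set position, transcript form or the reach of the cDNA moved with these signals was not tested.

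**Figure D5:**
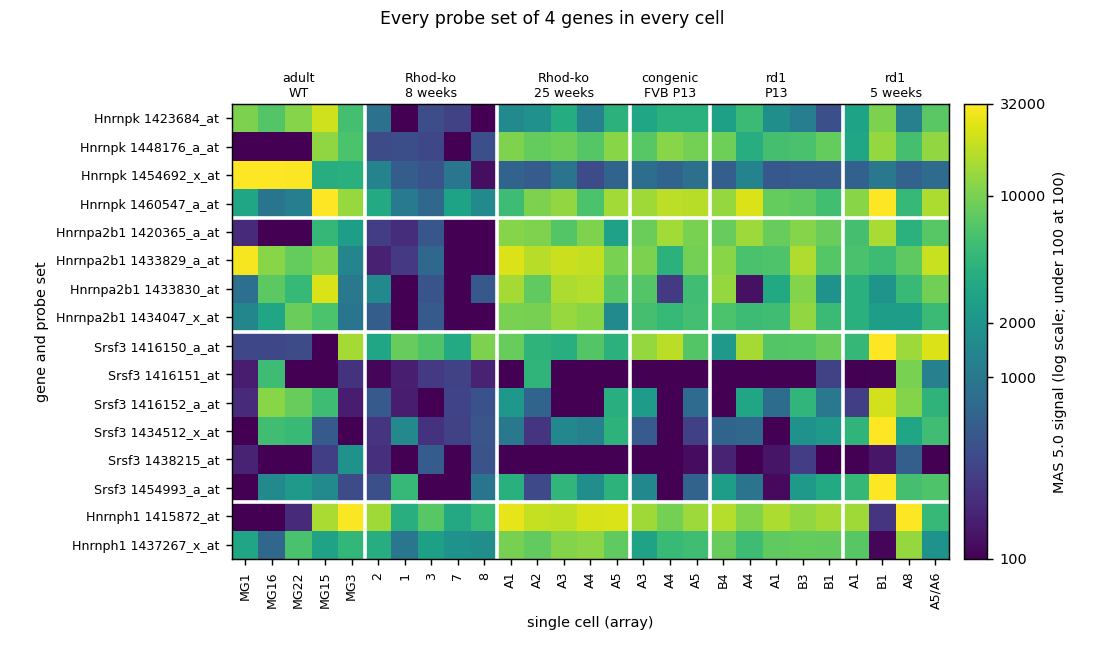
Signal of every probe set of Hnrnpk, Hnrnpa2b1, Srsf3 and Hnrnph1 (rows) in each of the 27 cells (columns, by condition), on a log colour scale in MAS 5.0 units. Probe set 1454692_x_at of Hnrnpk is brightest in adult WT cells MG1, MG16 and MG22, where 1415872_at of Hnrnph1 is dark, and all probe sets of Hnrnpa2b1 are dark in Rhod-ko at 8 weeks.

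Other genes of the splicing pathway were taken from 7 lists of 182 genes, 169 of them measured. In Rhod-ko at 8 weeks 23 (13.6%) were higher and 29 (17.2%) lower than adult WT, at 25 weeks 34 (20.1%) and 13 (7.69%), and in rd1 at 5 weeks 33 (19.5%) and 17 (10.1%). In rd1 at P13 25 (14.8%) were higher and 20 (11.8%) lower than congenic FVB, and of Rhod-ko cells at 8 against 25 weeks 14 (8.28%) were higher and 42 (24.9%) lower. Over all genes the shares higher and lower were 6.17% and 5.12% at 8 weeks, 7.90% and 3.70% at 25 weeks, 6.35% and 4.25% in rd1 at 5 weeks, 4.79% and 6.41% at P13, and 4.16% and 7.33% for 8 against 25 weeks. Of the 169 genes 51 were expressed. Of these 14 (27.5%) were higher and 20 (39.2%) lower at 8 weeks, against 41.6% and 28.5% of the 1513, 21 (41.2%) and 5 (9.8%) at 25 weeks, against 42.4% and 15.9%, and 20 (39.2%) and 10 (19.6%) in rd1 at 5 weeks, against 36.3% and 21.2%. At P13 11 (21.6%) were higher and 4 (7.84%) lower, against 23.7% and 12.1%. At 8 against 25 weeks 4 (7.84%) were higher and 29 (56.9%) lower, against 23.6% and 35.9%. The same shares are the background of each list below. The median difference was 0.00 in each comparison. The lists were chosen with earlier results known.

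The Sm and Lsm list has 18 measured genes, most of them for ring proteins of small nuclear particles. It also holds proteins outside the ring, such as Snrpc. Of the 18, 4 were higher and 1 lower at 8 weeks, 3 and 1 at 25 weeks and 3 and 0 in rd1 at 5 weeks. Snrpc was among the higher genes at 25 weeks and in rd1 at 5 weeks. Snrpd3 rose to a median of 5967 at 8 weeks from 158 in adult WT. Lsm4, which the study itself names from these cells, was at 1399, against 9880.0. Adult WT cell MG3 had Lsm4 at 831, inside the range of the 8 weeks cells. Among the 32 genes for U1, U4/U6, U5 and Prp proteins, 7 were higher and 3 lower at 8 weeks, 4 and 3 at 25 weeks and 3 and 3 in rd1 at 5 weeks. Prpf19, a ubiquitin ligase of the active spliceosome, had a median of 34127 at 8 weeks, 2601 at 25 weeks and 12608 for rd1 at 5 weeks, against 1200.5 for adult WT. Its cells overlapped, since adult WT cell MG16 was at 20149 and 8 weeks cell 8 at 7389. Prpf8, the core protein of the U5 particle, had medians of 167, 1925 and 716 in the same order and 18084 in adult WT. Adult WT cell MG15 was at 100.1, however, and the congenic FVB cells, which are not mutant, were at 1856, 28.3 and 82.1.

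Of 12 genes for 3′ splice site recognition, 4 were higher and 1 lower at 8 weeks, 1 and 0 at 25 weeks and 3 and 2 in rd1 at 5 weeks. Puf60, a partner of U2AF, was higher in every cell of 8 weeks than in adult WT, with medians of 10433 and 100.4. Dhx15, a helicase that takes the spliceosome apart, was lower in every cell of 8 weeks, at 227 against 5802. In congenic FVB, Puf60 was at 6366, 12297 and 1983, and Dhx15 was at 7062, 6273 and 6165. Of 10 other spliceosomal helicases 1 was higher and 1 lower at 8 weeks, and 1 was higher and 0 lower both in Rhod-ko at 25 weeks and in rd1 at 5 weeks. Ddx17 was at 4060 at 8 weeks, against 17996 in adult WT and 22359 at 25 weeks, with cells apart from both.

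SR-related proteins and SR kinases, with 28 genes, held 2 higher and 8 lower at 8 weeks, 8 and 3 at 25 weeks, and 6 and 4 in rd1 at 5 weeks. Of its 11 expressed genes 1 was higher and 5 were lower at 8 weeks. Clk1, a kinase that phosphorylates SR proteins, was at a median of 722 at 8 weeks and 9700 in adult WT. The groups overlapped, with 8 weeks cell 1 at 5696 and adult WT cell MG16 at 4806.5. Tra2a, which favours exon inclusion, was at 1071 at 8 weeks and 11375 at 25 weeks, with cells apart. Adult WT cells spread over both, at 26978, 16992, 401, 1467 and 1036. Srrm2, a large protein of nuclear speckles, had medians of 6583 in Rhod-ko at 25 weeks and 24941 for rd1 at 5 weeks, against 842 for adult WT, and every cell of both mutants lay above it. Rbm39 had a median of 2070 for rd1 at 5 weeks against 25574 for adult WT, with cells apart. In congenic FVB, Srrm2 was at 6822.5, 4592 and 11206, and Rbm39 was at 7313, 4774 and 9006.

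The largest list, 56 genes for other regulatory proteins that bind RNA, held 5 higher and 11 lower genes at 8 weeks, 16 and 4 at 25 weeks and 16 and 6 in rd1 at 5 weeks. Of its 19 expressed genes 4 were higher and 9 lower at 8 weeks, 9 and 2 at 25 weeks and 8 and 5 in rd1 at 5 weeks. Pcbp2, a KH domain protein akin to Hnrnpk, had medians of 301 in adult WT, 4697 at 8 weeks, 16294 at 25 weeks and 18913 in rd1 at 5 weeks. Adult WT cell MG15 had Pcbp2 at 12208, and the congenic FVB cells were at 6858, 16226 and 6008. Pcbp3 was at 52.7 in adult WT and 19420 at 8 weeks, higher in every cell. Syncrip, also named by the study, was at 12732 in adult WT and at 415, 105 and 542 in the mutants, lower in every cell of each. The congenic FVB cells also lay under every adult WT cell for Syncrip, at 2384, 1461 and 3224. Matr3 and Qk were lower in every cell of 8 weeks than of 25 weeks, at 847 against 8323 and 952 against 7081. Of the 13 genes for the exon junction complex and export, 0 were higher and 4 lower at 8 weeks, 1 and 2 at 25 weeks, and 1 and 2 in rd1 at 5 weeks. Nxt1, a cofactor of mRNA export, had a median of 20119 in adult WT and of 889, 184.5 and 132 in the mutants. Adult WT cell MG3 was at 623 and 8 weeks cell 3 at 11075, so these groups overlapped. The congenic FVB cells had Nxt1 at 218, 84.6 and 202.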

How the data were processed

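Single MGCs were lysed, RNA was reverse transcribed from an oligo dT primer, and the cDNA was tailed and amplified by PCR before hybridization to Affymetrix Mouse Genome 430 2.0 arrays. The deposited values are signal intensities that the authors made with MAS 5.0, on a linear scale, and the trimmed mean of each of the 28 arrays (2% off each end) was 500. Of 45101 probe sets, 34958 carry 1 gene symbol, 932 several and 9211 none. The first kind gave 18194 genes, each at its highest probe set per cell, as the methods of the study state. All 40 splicing genes, with 126 probe sets, matched RefSeq by Entrez number.

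Genes were on at 2000. Group medians of log2 signals floored at 1000 were compared, with calls at 1 (2-fold). No animal is named, so conditions were not tested against each other, and p-values are not given. The number of cells limits the precision. Genes named with values for each cell were the 3 largest higher and 3 largest lower per comparison with adult WT, those called with cells apart, those with probe sets called both ways, and both Rsrc genes. The splicing genes, gene lists and comparisons were chosen with earlier results of these data known, and the comparisons of 8 weeks with 25 weeks and with all other cells were added after their values were seen. Promoters came from RefSeq on GRCm38.p6. Alternatives covered probe sets, scaling, floor, means, cells with other markers and each cell left out. Python 3.11.15, pandas 2.3.3, NumPy 2.4.6 and SciPy 1.17.1 were used, and the steps were tested on simulated data. The replicate names pair no samples.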

Additional observations from a re-analysis of the deposited data

Results flagged for a closer look

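Within groups of 4 or 5 cells, 9 values of 125 examined stood far from the other cells of their condition. Chance flags about 1 in 20 groups. In rd1 at P13, Hnrnpa0 was at 9495 in cell B3 and at 4692 to 5700.4 in the others, Rsrc2 was at 120.1 in cell A4 against 1516.5 to 3101.5, Sf3b3 was at 577 in cell B3 against 2754 to 4712, and Srsf6 was at 3239 in cell A4 against 9872 to 11475. In rd1 at 5 weeks, Hnrnpul2 was at 26.6 in the cell of arrays A5 and A6 against 4378 to 11433, and Rsrc2 was at 3595 in cell A1 against 52.2 to 87.1. In Rhod-ko at 25 weeks, cell A5 was low for Sf3b3, at 38.7 against 2069.9 to 4109.8, and for Srsf2, at 1799 against 4885 to 7099. In adult WT, Srsf3 was at 348 in cell MG1 against 5355 to 14730.5. Cells rd1 P13 A4 and rd1 5 weeks A1 also carried neuron markers, whose part in these values was not tested.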

How the results depend on the processing

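No paired analysis was possible because the labels give no animal and the comparisons come from no test. Of 31 differences given by name, 29 kept their direction or came to 0 under every alternative. The others were Hnrnph1 in Rhod-ko at 25 weeks, at -0.27 under scaling to the same 90th percentile, and Hnrnpab in Rhod-ko at 8 weeks, at -0.01 by means. The cause was not tested, here and below.

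Counts of splicing genes moved as follows. With 1 probe set per gene, 7 were higher and 7 lower in Rhod-ko at 8 weeks, 2 lower at 25 weeks, 6 lower in rd1 at 5 weeks, and 13 higher and 3 lower in all mutant cells. At the same 90th percentile, 4 were higher and 16 lower in Rhod-ko at 25 weeks, 3 higher and 19 lower in all mutant cells, and 6 higher at 8 against 25 weeks. A floor of 2000 gave 3 higher in Rhod-ko at 25 weeks, 5 in rd1 at 5 weeks, 3 in rd1 at P13 and 2 in all mutant cells, where fewer differences can reach 2-fold. Means gave 6 higher in Rhod-ko at 25 weeks, 2 lower at P13, 2 higher in all mutant cells and 1 higher at 8 against 25 weeks. That last count was also 1 without probe sets that can match several transcripts, without cells with neuron markers, and without all cells named for markers.

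Leaving out single cells gave 3 to 5 higher and 12 to 15 lower at 8 weeks, 6 to 14 and 3 to 6 at 25 weeks, 7 to 11 and 7 to 11 in rd1 at 5 weeks, 4 to 7 and 2 to 6 at P13, 3 to 7 and 6 to 10 in all mutant cells, and 1 to 3 and 15 to 18 at 8 against 25 weeks. The count of higher genes in all mutant cells was 3 without adult WT cell MG1 or MG16, and of lower genes 10 without MG15 or MG3. The count of higher genes at 8 weeks was 5 without MG22 or MG3.

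The median of splicing genes on per cell also moved. With 1 probe set per gene it was 16 in adult WT and 13 in Rhod-ko at 8 weeks. For rd1 at P13 it was 24 under quantile normalization and at the same 90th percentile. With on at 1000 it was 24 in adult WT, 19 at 8 weeks, 29 at 25 weeks and 33 in rd1 at P13. With on at 500 it was 26 in adult WT and at 8 weeks, 32 at 25 weeks and in congenic FVB, and 35 in rd1 at P13. With on at 10000 it was 10 in adult WT, 2 at 8 weeks, 9 at 25 weeks, 7 in congenic FVB, 6 in rd1 at P13 and 9.5 in rd1 at 5 weeks. Without probe sets that can match several transcripts it was 12 at 8 weeks, 23 at 25 weeks and 24 in rd1 at P13. Signals near background limit the low end, since 42.2% of all genes were on in no cell.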
